A study of Mus musculus with 2 samples.

Results

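The receptors of the TREM family (triggering receptors expressed on myeloid cells), their transmembrane adaptors DAP12 and DAP10, and the signalling enzymes Syk and phospholipase C gamma 2 were followed in air pouch membranes stimulated with monosodium urate (MSU) crystals. The members are 10 genes (Trem1, Trem2, Trem3, Treml1, Treml2, Treml4, Tyrobp, Hcst, Syk and Plcg2), taken as all probe sets that the platform's annotation assigns to one of them alone. This gave 18 probe sets for the 10 genes, out of 34945 probe sets for 18193 genes on the array. A probe set is a set of short DNA probes read out as 1 value for a transcript.

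The MSU pool held RNA from 3 female Balb/C mice, 6 to 8 weeks old, whose air pouches had received 2 mg MSU crystals in 1 ml phosphate-buffered saline (PBS), and the control pool RNA from 3 such mice given 1 ml PBS alone. All pouches were raised on the back with air and dissected 9 h after injection, and each pool was hybridized to 1 Affymetrix Mo430_2 array. In the sample records the pouch was raised with 2 ml air and injected on day 7, whereas the methods of the paper give a larger volume, re-inflation and injection on an earlier day. With 1 array per condition there was no replicate spread between mice or arrays, so that the conditions could not be tested against each other and no p-value is given.

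TREM receptors are immunoglobulin-like surface proteins of myeloid cells. Most of them have a very short cytoplasmic tail and signal through DAP12 (Tyrobp), whose immunoreceptor tyrosine-based activation motif (ITAM) is phosphorylated by Src family kinases and then binds the kinase Syk, which in turn leads to activation of phospholipase C gamma 2 and of the CARD9, BCL10 and MALT1 complex. TREM-1 is known as an amplifier of inflammatory responses in neutrophils and monocytes, and TREM-2 as a lipid-binding receptor of tissue macrophages, microglia and osteoclasts.

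The genes of the mouse TREM family lie in a cluster on chromosome 17, in the order Trem1, Trem3, Treml4, Treml2, Trem2, Treml1 in the RefSeq annotation. Trem3, Treml4 and Treml2 follow each other with 0 annotated genes between them, as do Trem2 and Treml1, and 1 other gene separates Treml2 from Trem2. Tyrobp and Hcst are direct neighbours on chromosome 7. The promoter sequences of Trem1 and Trem2 are shown because these receptors had the widest opposite ratios of the family, given with their signals further on. Both come from RefSeq (assembly GRCm38.p6), run 5′ to 3′ on the + strand, and reach from 250 bases before the start site to 50 bases after it. Capitals mark matches to 5 motifs searched on both strands, GAGGAA (PU.1), TGANTCA (AP-1), GGG and TTTCC with any 2 bases between them (NF-κB), TTGCNNAA (C/EBP) and CACGTG (E-box of the MiT family), where N is any base.
Trem1, chr17:48232489-48232788: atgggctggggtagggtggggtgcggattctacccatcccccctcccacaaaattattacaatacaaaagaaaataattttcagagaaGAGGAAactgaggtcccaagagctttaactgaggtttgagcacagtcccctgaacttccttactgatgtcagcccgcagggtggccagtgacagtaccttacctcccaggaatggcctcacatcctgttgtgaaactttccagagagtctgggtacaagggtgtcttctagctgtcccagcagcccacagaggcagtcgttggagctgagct
Trem2, chr17:48346151-48346450: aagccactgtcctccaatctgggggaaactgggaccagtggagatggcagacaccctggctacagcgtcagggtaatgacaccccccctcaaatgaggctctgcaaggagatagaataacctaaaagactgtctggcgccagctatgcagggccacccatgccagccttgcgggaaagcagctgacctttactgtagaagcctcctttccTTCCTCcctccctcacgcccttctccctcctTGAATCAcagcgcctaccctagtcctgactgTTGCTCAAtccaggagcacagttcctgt
The Trem1 window held 1 match, GAGGAA, whose first base lies 162 bases before the start site. The Trem2 window held 3, namely TTCCTC, the reverse complement of the same motif, beginning 40 bases before the start site, TGAATCA beginning 9 bases before it, and TTGCTCAA beginning 22 bases after it. None of these matches overlap. Among 32851 promoters of the same length, 28.3% held the PU.1 motif, 7.81% the AP-1 motif, 1.63% the NF-κB motif, 10.8% the C/EBP motif and 7.15% the E-box. Promoters were listed for 7 of the 10 members. The matches describe letters alone and not binding.

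The measure was 1 linear signal for each probe set and array, from the Affymetrix software (MAS5), after the authors had brought the trimmed means of the arrays together. For the tissue label, all 9 fibroblast markers and 15 of 18 resident macrophage markers listed were measured in the sense given next. A detection floor was set by rank on each array, so that as many probe sets reached it as the study called detected on that array. It lay at a signal of 74.1 on the MSU array and 64.6 on the control array. Ratios are MSU over control. They are called folds if neither signal was below its floor, and bounds ("at least"), taken against the floor, if 1 was. Each gene is read from whichever of its probe sets was brightest on average in log2 signal. Of the 18 member probe sets, 9 had a fold, 3 a bound and 6 lay below the floor on both arrays. Of the 12 with a fold or bound, 4 were higher by 2-fold or more in the MSU pool and 1 was lower by as much. Of all 18708 probe sets with a fold or bound, 3.97% and 3.59% were. Of the 10 member genes, 9 were measured, that is, had a fold or a bound, and Treml4 was not. At a fixed size of 2-fold, 2 of the 9 (Trem1 and Trem3) were higher in the MSU pool and 1 (Trem2) was lower, while Treml2 had a bound below this size, which is a lower limit. Over all 11155 measured genes, 3.70% were higher and 4.29% lower by this size. The median log2 ratio was 0.34 for the 8 members with a fold and -0.05 for all 10045 genes with a fold. Under scaling on the hybridization spike-ins, RNAs added in equal amount to each array, every log2 ratio is lower by 0.46, the members' median is -0.12 against -0.51 for all genes, and 1 member (Trem1) is higher and 1 (Trem2) lower by 2-fold or more, as are 1.77% and 15.8% of all genes.

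**Figure D1:**
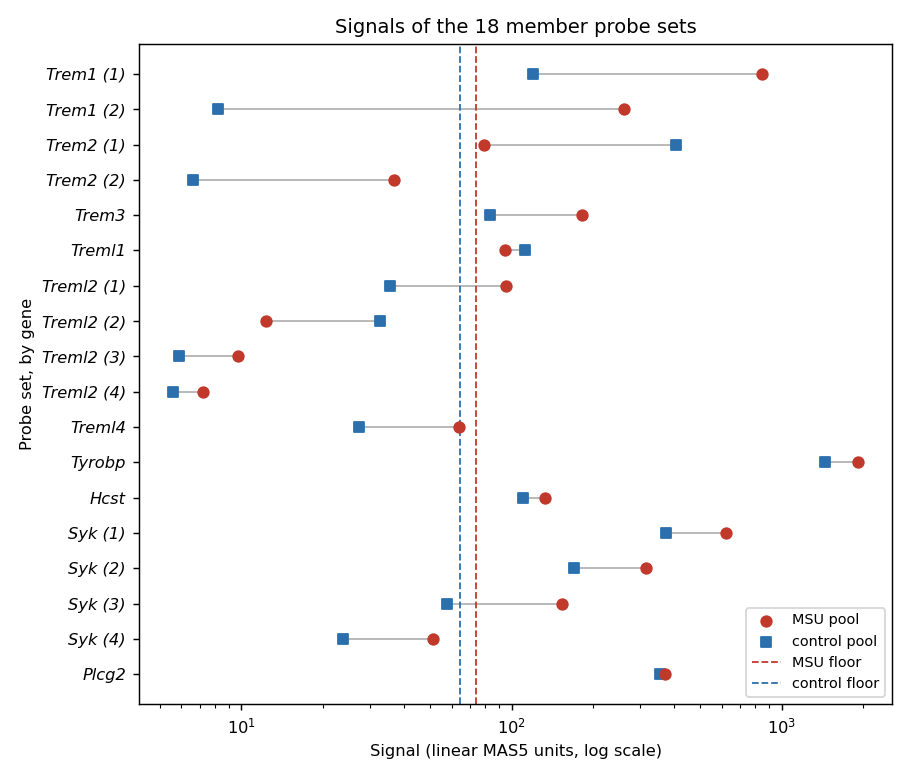
Signal of each member probe set in the MSU pool (red circles) and the control pool (blue squares) on a log axis, with the probe sets of each gene numbered by falling mean log2 signal. Dashed lines are the detection floors (74.1 for MSU and 64.6 for control). The first Trem1 probe set lies at 846 in the MSU pool and 120 in the control pool, and the first Trem2 probe set at 78.8 in the MSU pool and 406 in the control pool.

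TREM-1 had the highest ratio among the measured members. Its probe set 1447284_at lay at 846 in the MSU pool and 120 in the control pool, both above the floor, which is 7.04-fold higher (log2 ratio 2.82). Trem1 ranked 27 from the highest of the 11155 measured genes, with bounds entered at their limits, so that genes with only a bound may lie above it. As the RNA came from whole membranes, more or fewer cells of a type and more or less RNA per cell cannot be told apart, here and in all values that follow. The other Trem1 probe set, 1460282_at, lay at 262 in the MSU pool and 8.22 in the control pool, far below the floor. Its plain ratio was therefore 31.8, but the bound against the floor was at least 4.05-fold. Both probe sets were thus higher in the MSU pool, and the bound does not show whether the sizes of their ratios differ. Where a gene had several folds (4002 genes), their log2 values had a pooled SD of 0.33, a spread between probes and not between mice.

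TREM-2 had the lowest ratio among the members. Its probe set 1421792_s_at lay at 78.8 in the MSU pool, just above the floor of 74.1, and 406 in the control pool, which is 5.15-fold lower (log2 ratio -2.36, or 80.6% lower). Trem2 ranked 14 from the lowest of all measured genes, with bounds again entered at their limits. The second Trem2 probe set, 1421226_at, lay below the floor on both arrays with signals of 36.8 in the MSU pool and 6.63 in the control pool, so that it gives no fold and no direction. On the arrays the lower TREM-2 value therefore rests on 1 probe set. Apart from the arrays, the paper reported a decrease in TREM-2 mRNA by quantitative PCR in a time course of membranes, and a decrease in cultured macrophages given MSU crystals. The suffix _s_at marks probes that can match more than 1 transcript, and without such probe sets Trem2 had no fold. Between Trem1 and Trem2 the log2 ratios differed by 5.18, a value that does not change when an array is multiplied by a factor.

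TREM-3 is an activating receptor that pairs with DAP12 in the mouse. Its 1 probe set lay at 183 in the MSU pool and 83.1 in the control pool, which is 2.20-fold higher and close to the fixed size. Scaling on the spike-ins gave a log2 ratio of 0.68 in place of 1.14, below that size. Treml1 encodes TLT-1, a receptor of platelet granules with an inhibitory motif. Its signal was 94.5 in the MSU pool and 112 in the control pool, which is 1.19-fold lower and less than the pooled SD between probe sets. Treml1 lay below 0 under every scaling tried, between -0.71 and -0.25 on the log2 scale.

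Treml2 encodes TLT-2, a receptor of granulocytes, macrophages and B cells, and had 4 probe sets. One of them (1440298_at) reached the floor in the MSU pool alone, with a signal of 95.1 in the MSU pool and 35.5 in the control pool, so that its bound was at least 1.47-fold higher. The other three lay below the floor on both arrays, at 7.20 to 12.3 in the MSU pool and 5.58 to 32.5 in the control pool, with log2 plain ratios between -1.40 and 0.72. They give no order. Treml4 encodes a receptor that binds dead cells and pairs with DAP12. Its probe set lay at 64.0 in the MSU pool and 27.2 in the control pool, below both floors, so that no fold is given. Along the cluster, the genes with a fold or bound above 1 (Trem1, Trem3 and Treml2) lie on one side and those with a fold below 1 (Trem2 and Treml1) on the other. However, the Treml1 ratio was within the pooled SD between probe sets and the Treml2 bound rests on 1 of 4 probe sets. As Treml4 was not measured either, a split of the cluster by direction is not shown.

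**Figure D2:**
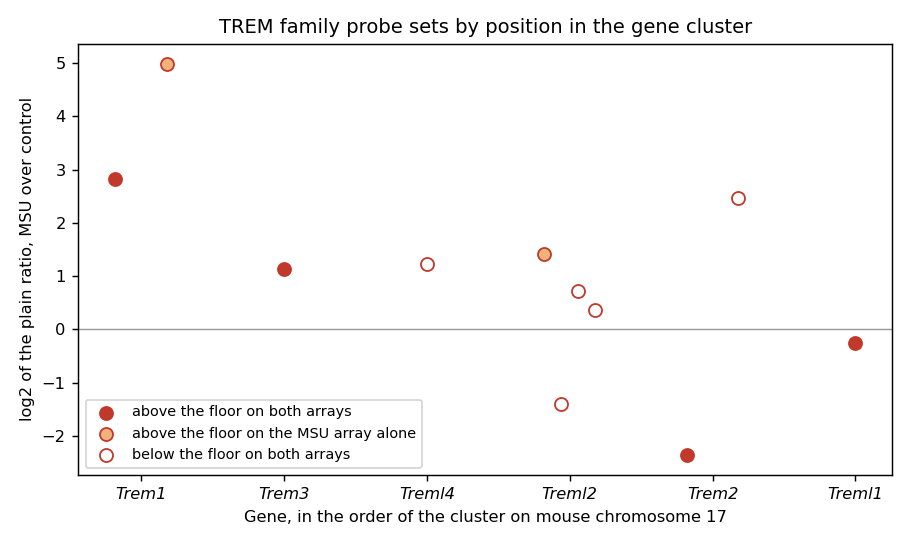
Log2 of the plain MSU over control ratio (y axis) of each TREM family probe set, with the genes in their order on mouse chromosome 17 (x axis, not to scale). Filled red points lay above the floor on both arrays, orange points on the MSU array alone and white points on neither. The filled points run between 2.82 for Trem1 and -2.36 for Trem2. White points give no direction.

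The adaptors differed between the pools by far less than Trem1 and Trem2. DAP12 (Tyrobp), the ITAM adaptor, had a signal of 1920 in the MSU pool and 1452 in the control pool, which is 1.32-fold higher, with a log2 ratio of 0.40 that turns to -0.05 under scaling on the spike-ins. DAP10 (Hcst), which carries a motif that recruits phosphatidylinositol 3-kinase in place of an ITAM, had a signal of 133 in the MSU pool and 110 in the control pool, or 1.21-fold higher, with a log2 ratio of 0.27 that turns to -0.18 under the same scaling. Each adaptor was measured by 1 probe set, and neither ratio reached 2-fold under any scaling tried.

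Syk was higher in the MSU pool on the 3 of its 4 probe sets that were measured. The probe set with the highest signal had 620 in the MSU pool and 373 in the control pool (1.66-fold), and the next 314 in the MSU pool and 171 in the control pool (1.84-fold). The third reached the floor in the MSU pool alone, at 154 against 57.5 in the control pool, with a bound of at least 2.38-fold. The last lay below the floor on both arrays, at 51.4 in the MSU pool and 23.9 in the control pool. The plain log2 ratios ran between 0.73 and 1.42, with an SD of 0.30 over the 4 probe sets. These values take in signals below the floor, and the last probe set gives no direction. With the spike-ins as the scale, Syk itself, on its probe set with the highest signal, was still above 0, at a log2 ratio of 0.27. Plcg2, the phospholipase that cleaves phosphatidylinositol bisphosphate to release calcium, had a signal of 371 in the MSU pool and 353 in the control pool. Its log2 ratio of 0.07 turned to -0.39 under scaling on the spike-ins and to about 0 under scaling to the same median, so that no direction is given.

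**Figure D3:**
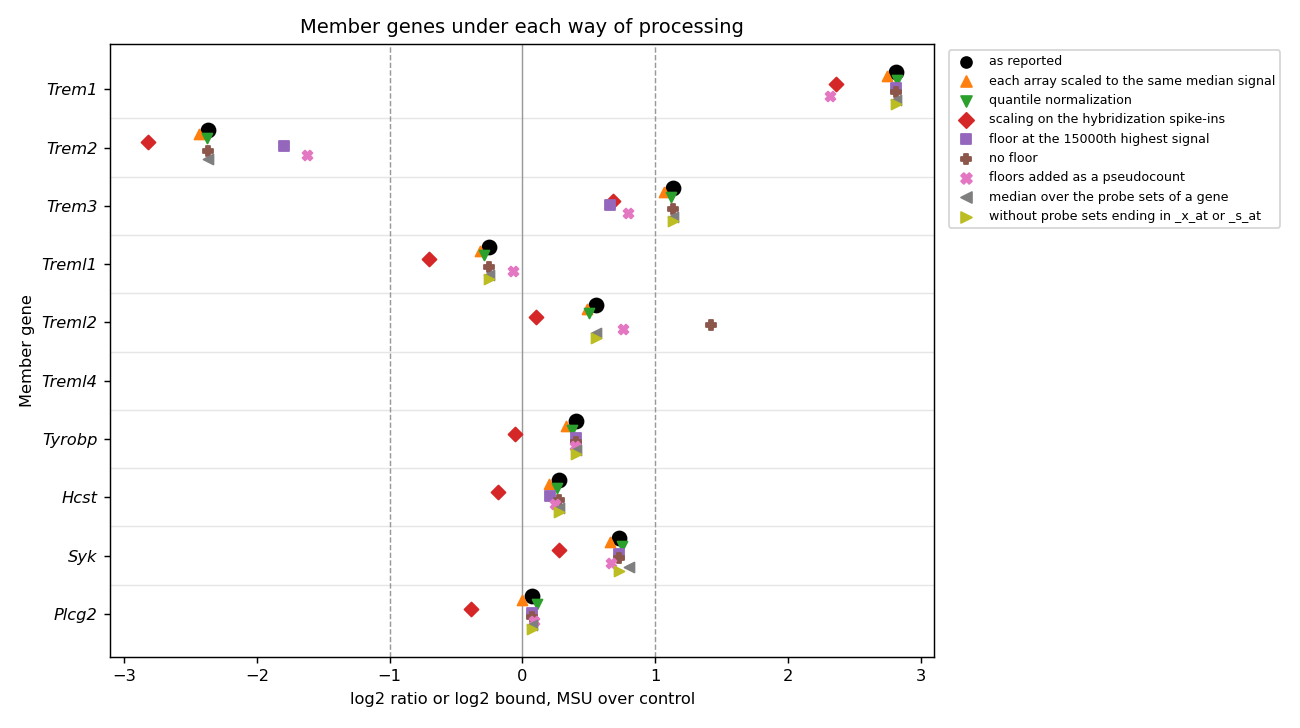
Log2 ratio or log2 bound (x axis) of each member gene (y axis) as reported (black) and under 8 other ways of processing (coloured symbols). Dashed lines mark 2-fold. Trem1 is nowhere below 2.32 and Trem2 nowhere above -1.62, whereas Tyrobp, Hcst and Plcg2 cross 0 under scaling on the spike-ins. Trem2 has no value without _s_at probe sets. Treml4, which had no fold or bound as reported, has no points.

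Markers of cell types were set beside these receptors. Of 12 mature neutrophil markers with a named probe set, 10 were measured, 9 were higher by 2-fold or more in the MSU pool and 0 lower by as much. Their summed signal was 24439 in the MSU pool and 3000 in the control pool, and the median log2 ratio of 2.98 lay near that of Trem1. The calgranulins S100a8 and S100a9 and the collagenase Mmp8 were among them, whereas lactoferrin (Ltf) had a log2 ratio of -0.54, and Camp and Padi4 lay below the floor in both pools. Of 7 markers of all leukocytes, 2 (Ptprc and Cd53) were higher by 2-fold or more. Scaled on the spike-ins, both were below that size. Arhgdib went the other way, with 623 in the MSU pool and 955 in the control pool, a log2 ratio of -0.62. On the spike-in scale Arhgdib passed 2-fold in that direction. The median log2 ratio of the 7 was 0.61 and their summed signal was 11599 in the MSU pool and 7143 in the control pool. The log2 ratios of Tyrobp and Hcst, 0.40 and 0.27, lay below that median and that of Syk, 0.73, above it. The part of cell numbers in the ratios of Trem1, Trem3 and Syk was not tested.

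Resident macrophage markers had a median log2 ratio of -0.15, against -2.36 for Trem2. Of 18 such markers, 15 were measured, of which 1 (the folate receptor Folr2) was lower by 2-fold or more and 0 were shown to be higher by as much, with Siglec1 a bound of at least 1.70-fold. Their summed signal was 32823 in the MSU pool and 33698 in the control pool. The pan-macrophage genes Adgre1 (F4/80) and Csf1r had log2 ratios of -0.12 and 0.19, of which that of Csf1r is below 0 under scaling on the spike-ins. Cd68 had a log2 ratio of -0.78, and on the spike-in scale it was more than 2-fold lower. The complement genes C1qa, C1qb and C1qc had log2 ratios of -0.50, -0.47 and -0.52. The scavenger receptor Cd163, with 2467 in the MSU pool and 1270 in the control pool, had a log2 ratio of 0.96, and the mannose receptor Mrc1, with 6420 in the MSU pool and 3609 in the control pool, one of 0.83, both above 0 on the spike-in scale as well. Timd4, Marco and Cx3cr1 lay below the floor in both pools. Of 7 adipocyte markers measured, 6 were at least 2-fold lower, with a summed signal of 2222 in the MSU pool and 10700 in the control pool. Of 8 skeletal muscle markers, 3 (Myh2, Tnni2 and Tnnt3) were at least 2-fold lower, with a sum over the 8 of 21851 in the MSU pool and 31374 in the control pool. The log2 ratios of the other muscle markers lay between -0.72 for Ckm and 0.20 for Acta1, and that of Ttn was 0.11. On the spike-in scale Ckm was more than 2-fold lower, and Acta1 and Ttn were below 0. No marker of either list was below the floor on both arrays. The paper set its quantitative PCR values at 9 h, TREM-2 included, against the fat marker resistin and the muscle marker dystrophin. It reported no significant association. Whether fat or muscle contributed to the Trem2 signal on the arrays was not tested here.

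**Figure D4:**
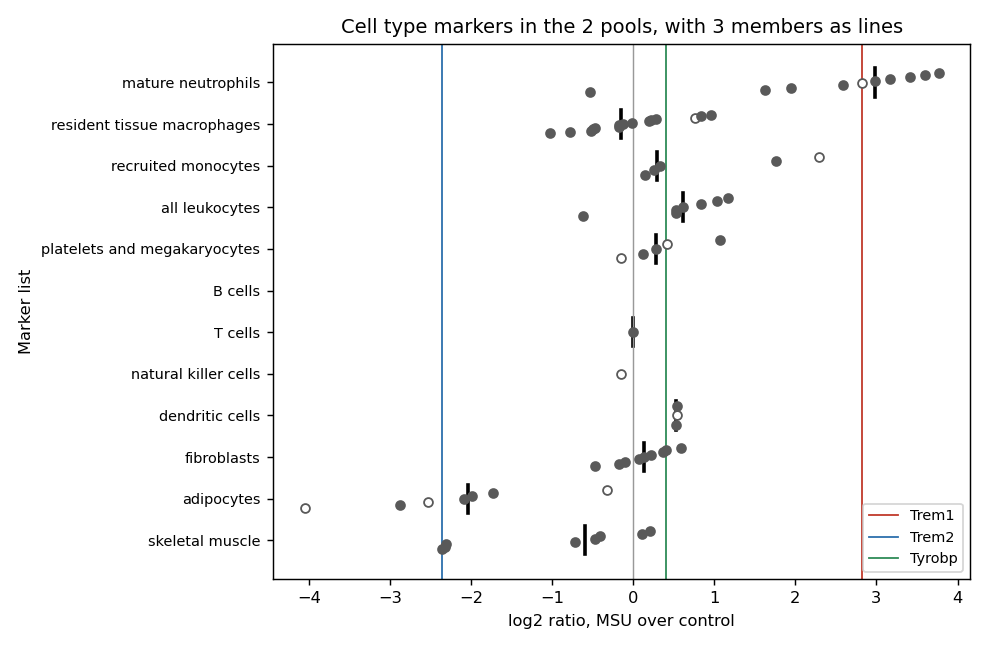
Log2 ratio of MSU over control (x axis) for the measured markers of 12 cell types (y axis). Filled points are folds, open points bounds, black bars medians over the folds, and the vertical lines Trem1 (red), Trem2 (blue) and Tyrobp (green). The neutrophil median of 2.98 lies beside the Trem1 line, while the resident macrophage median is -0.15, far from the Trem2 line at -2.36.

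Platelet markers were examined because TLT-1 is a platelet receptor. Among 6 that had a named probe set, 5 were measured, and 1 of these (Pf4) was higher by 2-fold or more. Scaled on the spike-ins, Pf4 was below that size. The 2 with bounds only went opposite ways, Gp6 at least 1.33-fold higher and Tubb1 at least 1.11-fold lower. The sum of their signals was 5030 in the MSU pool and 2543 in the control pool, most of it from Pf4 (4565 in the MSU pool and 2179 in the control pool). The integrin subunit Itga2b had a log2 ratio of 0.28, which is below 0 under scaling on the spike-ins, and Gp9 lay below the floor in both pools. All 4 B cell markers with a named probe set lay below the floor in both pools.

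The other genes of the pathway were read from 10 lists by role, with 97 genes, of which 85 had a named probe set and 78 were measured. In the MSU pool 6 of the 78 (7.69%) were higher by 2-fold or more and 3 (3.85%) lower by as much, and the median log2 ratio was 0.13. Scaled on the spike-ins, 3 (3.85%) were higher, 10 (12.8%) were lower and the median was -0.33, where 1.77% of all genes were higher and 15.8% lower. The 10 lower on that scale were Blnk, Lpl, Lipa, Clec2d, Clu, Il34, Fyn, Pik3r1, Ppp3cb and Psenen. The highest ratio was that of a receptor of the ITAM route. The C-type lectin Clec4e (Mincle), which signals through the Fc receptor gamma chain, had signals of 1636 in the MSU pool and 118 in the control pool (13.9-fold higher), and its second probe set was 7.43-fold higher. Clec4d was 4.21-fold higher, on a probe set of the _s_at kind, whereas the gamma chain itself, Fcer1g, had signals of 901 in the MSU pool and 906 in the control pool, a log2 ratio of -0.01 against 0.40 for DAP12. Clec2d, which in the mouse is a ligand of natural killer cell receptors and not an ITAM receptor, was 1.78-fold lower.

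Of 6 measured receptors that pair with DAP12 or DAP10, 1 was at least 2-fold higher. This was Sirpb1a, an activating receptor of the SIRP family, with 194 in the MSU pool and 81.2 in the control pool (2.39-fold). It was below 2-fold when scaled on the spike-ins. Pilrb1 was 1.87-fold higher, Cd300ld 1.34-fold lower and Cd200r4 1.05-fold lower. Cd300lb was 1.06-fold higher, or lower when scaled on the spike-ins, and the DAP10 partner Klrk1 (NKG2D) lay below the floor in both pools. Among 5 measured ligands and co-receptors, the 4 with a fold were all below 2-fold as deposited and Pglyrp1 had a bound only. The TREM-1 ligand Pglyrp1, a neutrophil granule protein, had a signal of 93.9 in the MSU pool and 2.16 in the control pool, with a bound of at least 1.45-fold, which is a lower limit. Apoe, a ligand of TREM-2, was 1.12-fold higher, or below 0 on the log2 scale when scaled on the spike-ins. The cytokine Il34 was 1.51-fold lower and the lipoprotein clusterin (Clu), another TREM-2 ligand, was 1.74-fold lower. Both Il34 and Clu were more than 2-fold lower when scaled on the spike-ins.

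Of 6 measured Src and Tec family kinases, Fgr, a kinase of myeloid cells, was 2.39-fold higher, Src 1.79-fold higher, Fyn 1.48-fold lower and Btk 1.11-fold lower. The second Fgr probe set gave 1.95-fold, and the first was below 2-fold when scaled on the spike-ins. Of 10 adaptors and exchange factors next to Syk, none was at least 2-fold higher. Lcp2 (SLP-76) had signals of 489 in the MSU pool and 257 in the control pool (1.90-fold higher) and the exchange factor Vav1 was 1.58-fold higher, whereas Blnk, the linker known best from B cells, had 127 in the MSU pool and 369 in the control pool (2.92-fold lower). The adaptor Nck1 was 1.20-fold lower, and Grb2 was 1.08-fold higher, or lower when scaled on the spike-ins. None of 9 lipid signalling genes reached 2-fold in either direction as deposited. Their median log2 ratio was 0.46, with Pik3ap1 (BCAP) 1.58-fold, Pik3r5 1.42-fold and the protein kinase C Prkcd 1.38-fold higher. The phosphatidylinositol 3-kinase subunit Pik3r1 was 1.62-fold lower and Plcg1, the paralogue of Plcg2, 1.34-fold lower. Scaled on the spike-ins, Pik3r1 was more than 2-fold lower.

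In the CARD9 and NFAT group, 1 of 7 measured genes was at least 2-fold higher. Malt1, the paracaspase of the complex, had 711 in the MSU pool and 115 in the control pool (6.19-fold higher), and its other probe sets were 5.39- and 4.73-fold higher. The ubiquitin ligase Traf6 was 1.76-fold and the MALT1 partner Bcl10 1.51-fold higher, whereas the calcineurin subunit Ppp3cb was 1.46-fold and the transcription factor Nfatc1 1.14-fold lower. Of 14 measured inhibitors of ITAM signalling, 1 was higher by 2-fold or more and 0 lower by as much. Socs1, an inhibitor of cytokine signalling, was 2.25-fold higher, or below 2-fold when scaled on the spike-ins. Pilra, the inhibitory partner of Pilrb1, was 1.92-fold higher. The phosphatases Ptpn6 (SHP-1) and Inpp5d (SHIP1) were 1.38- and 1.40-fold higher, whereas Cd300a was 1.34-fold, Inppl1 (SHIP2) 1.21-fold and the inhibitory receptor Sirpa 1.13-fold lower.

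Proteases that shed TREM receptors from the cell surface differed little. Adam17 was 1.52-fold higher. Aph1a, a subunit of gamma-secretase, was 1.21-fold and Adam10 1.17-fold higher, both of them lower when scaled on the spike-ins. The gamma-secretase subunits Psenen and Ncstn were 1.62- and 1.07-fold lower, and none of the 6 measured genes reached 2-fold as deposited. Psenen was more than 2-fold lower when scaled on the spike-ins. Genes of lipid-handling macrophages that depend on TREM-2 had a median log2 ratio of 0.03, or below 0 when scaled on the spike-ins. Of 9 measured, 2 were lower by 2-fold or more. Lipoprotein lipase (Lpl), which fat cells and muscle also express, had 1399 in the MSU pool and 3912 in the control pool (2.80-fold lower), and the lysosomal lipase Lipa was 2.14-fold lower, or 1.95- and 1.46-fold lower on its other probe sets. The fatty acid carrier Fabp5 was 1.57-fold higher and the protease Ctsd 1.15-fold lower. The log2 ratios of Itgax, Gpnmb and Lgals3, at 0.37, 0.03 and 0.08, were below 0 when scaled on the spike-ins.

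**Figure D5:**
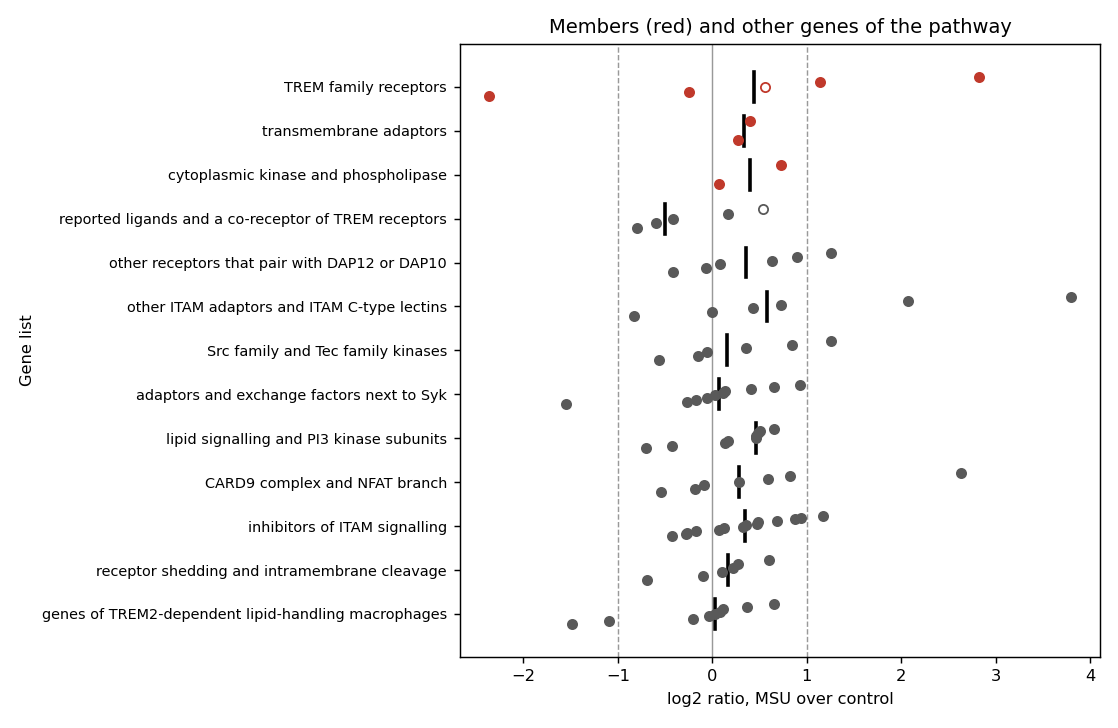
Log2 ratio of MSU over control (x axis) for the measured members (red) and the other genes of the pathway (grey), by list (y axis). Filled points are folds, open points bounds, dashed lines 2-fold and black bars medians over the folds. Trem1 and Trem2 form the outer points of their list, and Clec4e (3.80), Malt1 (2.63) and Clec4d (2.07) are the farthest to the right among the other genes.

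The genes whose pair of signals lay nearest to that of Trem1 were the chemerin-binding receptor Ccrl2, Malt1, the protease inhibitor Slpi, Rrad and Ifitm6, at distances of 0.24 to 0.40 on the log2 scale over the 2 arrays. For Trem2 they were Gpd1, an enzyme of glycerol lipid synthesis abundant in fat, Sertad4, Akr1c14, Hebp1 and Gstz1, at 0.09 to 0.30. With only 2 arrays, this likeness is one of level and ratio on probe sets that differ in sensitivity.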

How the data were processed

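Total RNA of dissected air pouch membranes from 3 MSU-injected and 3 control mice was pooled per condition and hybridized to 1 array each. The authors deposited 1 signal intensity on a linear scale per probe set and array, made with MAS5 according to the submitters' processing notes (version not given in the sources used here), and had scaled each array by 1 factor. They were used as deposited, on a log2 scale only for ratios. Detection calls were not used here. The floors were set by rank from the study's numbers of detected probe sets and take no account of probe-level background. Precision is limited by the number of arrays.

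The table holds 45101 probe sets, of which the platform annotation gives 1 gene for 34945 without Affymetrix controls, several for 932 and none for 9211 that it leaves unlisted. RefSeq (GRCm38.p6) gave current symbols by gene identifier, and gene order. Of 210 symbols in the lists, 186 had a named probe set. The members and lists were chosen with earlier results of these data known. Named are all members and, in each pathway list, the 2 highest, the 2 lowest and the member with the highest signal. For Trem1 and Trem2 the 5 genes nearest in log2 signal on both arrays are named. Further list members were named after their values were seen. The ITAM list holds Clec2d, which is not an ITAM receptor. The alternatives were 3 scalings, 3 treatments of the floor, 2 choices of probe set and a size of 3-fold. The gene step was tested on simulated data. Computations used Python 3.11.15, numpy 2.4.6, pandas 2.3.3 and matplotlib 3.10.9.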

Additional observations from a re-analysis of the deposited data

How the results depend on the processing

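No paired analysis was possible because each condition has 1 array. As no replicates exist, a ratio or median was taken as moved when it shifted by more than the pooled SD between probe sets of a gene, 0.33 on the log2 scale, and a count when it changed by more than 1.5 times. Of 153 values recomputed under the alternatives, 117 stayed within these limits and 36 moved. Some alternatives leave a value unchanged by construction, so the 117 are not separate checks. The sign differed in 7 of the 153, all ratios or medians below 2-fold as reported. No ratio of 2-fold or more turned its sign, but the scalings shift ratios too little to turn one. Of the members, 2 were at least 2-fold higher, against 1 under scaling on the spike-ins, with the floor at the 15000th highest signal, with the floors added as a pseudocount or at a size of 3-fold, and 4 with no floor. The 1 member at least 2-fold lower became 0 without _x_at and _s_at probe sets. The members' median log2 ratio of 0.34 was -0.12 under scaling on the spike-ins. The log2 ratio of Trem1 was 2.36 under that scaling and 2.32 with the pseudocount. That of Trem2 was -2.82 under that scaling, -1.62 with the pseudocount and a bound of -1.79 with the higher floor. The difference between them was 3.94 with the pseudocount. Pathway genes at least 2-fold higher and lower were 6 and 3, against 3 and 10 under scaling on the spike-ins and 3 and 0 at 3-fold. Over all genes, 413 and 478 became 200 and 1787 on the spike-ins, 1623 and 1724 with no floor and 164 and 80 at 3-fold, and with the pseudocount 218 were lower. The spike-ins were a median of 1.37-fold brighter on the MSU array in 18 of 18 probe sets, for which the cause was not tested. The difference between Trem1 and Trem2 has no value with the higher floor or without _x_at and _s_at probe sets, since Trem2 then had no fold. The signal of Trem2 in the MSU pool, near the floor, limits its fold.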

Other observations

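Among the other cell types, fibroblast markers were measured for 9 of 9 genes, with none at least 2-fold higher or lower and a median log2 ratio of 0.14, which is below 0 under scaling on the spike-ins. Of 5 recruited monocyte markers measured, 2 were at least 2-fold higher. These were the chitinase-like protein Chil3, at a log2 ratio of 1.76, and the coagulation factor F10, at a log2 bound of 2.29, whereas the chemokine receptor Ccr2 had 0.14, below 0 on the spike-in scale. T cell markers were measured for 1 of 5 genes (Cd8a, at 97.8 in the MSU pool and 98.2 in the control pool) and natural killer cell markers for 1 of 5 (Gzma). Of 5 dendritic cell markers 3 were measured, the 2 with a fold (Zbtb46 and Cd209a) below 2-fold. The chemokine receptor Ccr7 had a signal of 94.0 in the MSU pool and 8.09 in the control pool, where it lay far below the floor, so that its bound of at least 1.45-fold is a lower limit.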
